A study of Mus musculus with 15 samples.

Results

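Among the nuclei of the dorsal hippocampal formation (dHF) punches, 1368 GABAergic nuclei carried transcripts of Mecom, Pax3 or Gata3, genes of 3 transcription factors. They were 1.10% of the 124527 nuclei with at least 1000 detected genes in 15 libraries, and 9.73% of the 14054 GABAergic nuclei. A nucleus was taken as a member with at least 2 UMIs (unique molecular identifiers, each standing for 1 captured RNA molecule) of Gad1 plus Gad2, the enzymes that make GABA, at least 2 UMIs of Mecom plus Pax3 plus Gata3, no UMI of the interneuron gene Lhx6 and under 3 UMIs of Rarb, a retinoic acid receptor gene of striatal neurons. Members were therefore selected on their measured values, and the levels of these 7 genes in them are a description. The libraries were single-nuclei RNA sequencing (snRNA-seq) of female C57BL6/J mice, 1 mouse a library. The study asked how reproductive experience (RE: pregnancy, birth, lactation and maternal care) and stress during it change this tissue. The 6 NP mice were age-matched virgins, the 4 control RE mice raised their pups to weaning, and the 5 stress RE mice did so under limited nesting and daily separation from their pups. The micropunches were aimed at the dHF but, by the methods, also took in cortical, thalamic and ventral hippocampal tissue. Nothing in the labels gives the region a single nucleus came from.

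GABAergic neurons of the brain come from several embryonic sources. Those of the hippocampus and cortex arise in the ventral telencephalon under the Dlx genes, while the GABAergic neurons of the midbrain and of the diencephalon, which includes parts of the thalamus and pretectum, use Gata2, Gata3, Tal1 and, by region, Pax3, Pax7, Lhx1, Lhx5, Sox14 and Otx2. Gata3 (chromosome 2, 9857078 to 9890034) encodes a zinc finger factor of GABAergic fate, Pax3 (chromosome 1, 78101267 to 78197134) a paired box factor of the dorsal neural tube, and Mecom (chromosome 3, 29951296 to 30548008) a zinc finger factor also named Evi1. Chrm2 (chromosome 6, 36388084 to 36528414), the M2 muscarinic receptor for acetylcholine, and Pld5 (chromosome 1, 175962306 to 176275312), a phospholipase D family member, were given as further markers of these nuclei. All positions are on GRCm38.

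A name that joins Gata3 and Pax3 held for few of these nuclei. Gata3 had a UMI in 806 of the 1368 members (58.9%), Pax3 in 363 (26.5%) and Mecom in 686 (50.1%), but Pax3 and Gata3 were seen together in 177 (12.9%), Mecom and Pax3 in 42 (3.07%) and all 3 in 17 (1.24%). Among the 329 members with at least 2 UMIs of Pax3, 9.12% had a UMI of Mecom and 45.6% one of Gata3. Among the 652 members with at least 2 UMIs of Mecom, 5.52% had a UMI of Pax3 and 39.0% one of Gata3. The nuclei were thus a collection of Mecom nuclei without Pax3 (644), Pax3 nuclei without Mecom (321) and nuclei with Gata3 alone (361), and they are called Gata3, Pax3 or Mecom GABAergic nuclei here. Detection of a nuclear transcript is incomplete, and a missing UMI does not show a missing gene product.

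The members had a median of 10729.5 UMIs and 3836 genes, of which 8 UMIs were Gad1 plus Gad2 and 6 were Mecom plus Pax3 plus Gata3. Of the members, 309 stood at the limit of exactly 2 UMIs of the 3 factors, and 733 further nuclei stood just outside it with exactly 1. At the limit of Gad1 plus Gad2, 94 members had exactly 2 UMIs, while 301 nuclei with exactly 1 were just outside. Lhx6 left out 24 nuclei and Rarb 178 of 1565 that met the other conditions. The link to GABA differed by factor. Of nuclei with at least 2 UMIs of Gata3, 94.6% (594 of 628) were GABAergic, against 50.9% for Pax3 (414 of 814) and 28.0% for Mecom (705 of 2516).

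Signs of free RNA and of joined nuclei were looked for beside these counts. With every nucleus thinned to 1500 UMIs, Mecom was seen in 4.20% of GABAergic nuclei and 0.847% of oligodendrocyte nuclei, Pax3 in 1.98% and 0.147%, and Gata3 in 2.33% and 0.126%. At full depth, at a median of 11057.5 UMIs in GABAergic and 2980 in oligodendrocyte nuclei, 11.1% and 0.349% reached 2 UMIs of the 3 factors. All 3 genes were thus seen more often in GABAergic than in oligodendrocyte nuclei. The 2337 Rarb GABAergic nuclei, which include the 178 that Rarb left out, had Mecom in 1.37%, Pax3 in 2.14% and Gata3 in 1.20% after thinning. Free RNA itself was not measured, since the counts were filtered matrices, and its part in single members was not tested. Scrublet, a doublet caller, marked 182 members (13.3%) and 7.28% of all nuclei. Of the 182, 172 were in 4 sub-clusters led by markers of glia, vessels or choroid plexus, which held 232 members (17.0%, "mixed" below). In the other 1136 members it marked 10 (0.880%). No barcode sequence was a member in more than 1 library, and 40 of the 1368 also occurred in another library.

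The share of members ran from 12 nuclei in NP mouse 35 (0.140% of nuclei, 95% Wilson interval 0.0800 to 0.244) to 222 in NP mouse 63 (2.66%, 2.34 to 3.03), both NP mice of batch 2. Such intervals cover counting error only. In the other NP mice, 27, 31, 37 and 73, it was 1.54%, 0.948%, 0.968% and 1.42%. In control RE mice 66, 72, 87 and 88 it was 1.09%, 0.509%, 1.25% and 0.882%, and in stress RE mice 43, 70, 75, 77 and 90 it was 0.229%, 1.86%, 1.27%, 1.15% and 0.936%. The groups overlapped throughout, and the lowest and the highest share both belonged to NP.

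**Figure D1:**
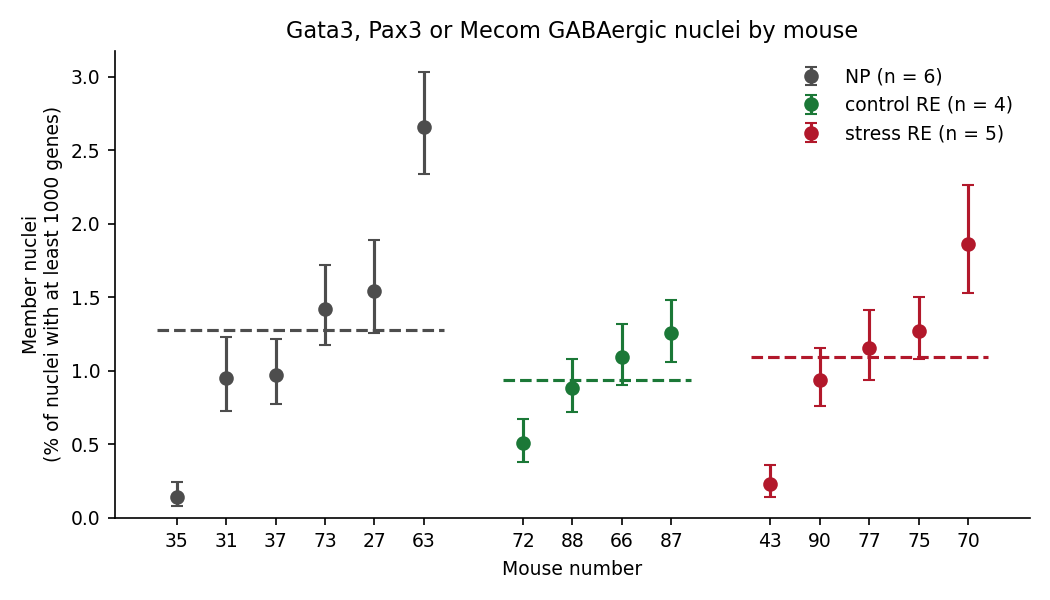
Share of Gata3, Pax3 or Mecom GABAergic nuclei in each mouse, as percent of nuclei with at least 1000 genes. Points are mice ordered by share within NP (n = 6), control RE (n = 4) and stress RE (n = 5), bars are 95% Wilson intervals and dashed lines group means; the range within NP, 0.140% to 2.66%, takes in every mouse of the other groups.

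No difference in share between groups passed the test over mice. NP mice had a mean of 1.28% ± 0.838 (SD, n = 6), control RE mice one of 0.935% ± 0.322 (n = 4) and stress RE mice one of 1.09% ± 0.591 (n = 5). The difference of control RE from NP came to −0.347 percentage points (exact permutation over mice, two-sided, p = 0.486, adjusted p = 0.71, 95% interval −1.4 to 0.61). Stress RE minus control RE was 0.156 points (exact permutation p = 0.667, adjusted p = 0.71, interval −0.65 to 0.87) and stress RE minus NP −0.190 points (exact permutation p = 0.71, adjusted p = 0.71, interval −1.29 to 0.84). These intervals are wide against the share itself. The smallest p the designs allowed was 0.00952, 0.0159 and 0.00433. Within batches 2 and 3, the ones with all 3 groups, the differences were −0.364, −0.0363 and −0.400 points (exact permutation within batches, p = 0.833, 1.0 and 0.611), in a test that could not go below 0.0556 and so could not pass 0.05. Stress RE minus control RE had the other sign there, which is the same value as without stress RE mouse 70, since these batches hold all other mice of both groups. The batches went opposite ways, with means of 1.05% in stress RE and 0.695% in control RE mice in batch 2 and of 0.752% and 1.17% in batch 3. Control RE minus NP was −0.0703 points without NP mouse 63 and −0.575 points without NP mouse 35. As percent of GABAergic nuclei, stress RE minus control RE had the other sign too, at −2.25 points, where GABAergic nuclei were 8.86% of nuclei in control RE and 13.4% in stress RE mice. Stress RE minus NP had the other sign without NP mouse 63 (0.0861 points) and without stress RE mouse 43 (0.0254 points).

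The 3 factors that chose the members were present in every mouse. Mecom had 246 to 1127 CPM (UMIs per 1000000 UMIs of the members of that mouse), with the lowest value in NP mouse 35. By group its CPM was 662 ± 285 (SD) in the 6 NP mice, 912 ± 49.4 in the 4 control RE mice and 827 ± 254 in the 5 stress RE mice. Pax3 had 36.2 to 210 CPM, and NP mouse 35 and stress RE mouse 43, the mice with 12 and 18 members, had the lowest values. Gata3 varied less, from 83.2 to 152 CPM. The groups overlapped for each of the 3.

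Gad1 and Gad2 were also part of the choice. Gad2 was at 485 CPM in members and 254 CPM in the other 12686 GABAergic nuclei, higher in members in 15 of 15 mice, whereas Gad1 was at 249 and 258 CPM. Slc32a1, the vesicular GABA transporter, which the choice did not use directly, had 82.6 CPM in members and 36.6 CPM in other GABAergic nuclei. The glutamate transporter Slc17a6 was at 10.1 CPM, against 243 CPM in the 7113 Slc17a6 and Tcf7l2 nuclei, which were chosen for these markers of thalamic glutamatergic neurons, and Slc17a7 at 25.9 CPM against 81.3 CPM in other GABAergic nuclei. Levels of members against other nuclei follow from how members were chosen and carry no test.

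Several transcription factor genes of midbrain and diencephalon were higher in these nuclei than in other GABAergic nuclei. Of the 42 listed, Mecom, Pax3 and Gata3 left aside, 18 were at least 2-fold higher in members (with 1 CPM added to both levels) and 1 at least 2-fold lower, beside 1.69% and 2.33% of all genes. The gene lists were chosen with earlier results of these data known, so this count and those of the lists below are a description. Many of the 18 were under 5 CPM in other GABAergic nuclei. So were most of all genes, of which 11478 of 32278 had at least 5 CPM there. Of the 15 with at least 5 CPM there, 4 were at least 2-fold higher in members, beside 2.34% of all genes at that level. Tal1, a partner of the Gata factors, had 34.8 CPM in members (11.8 to 52.0 over mice) and 4.67 CPM in other GABAergic nuclei (0.983 to 12.4). Gata2, which acts ahead of Gata3, had 10.9 and 1.09 CPM. The LIM factor genes Lhx1 and Lhx5 had 26.9 and 17.0 CPM in members and 3.703 and 2.002 CPM in other GABAergic nuclei. Each of these 4 was higher in members in 15 of 15 mice. Sox14, a marker of GABAergic neurons of the thalamus and pretectum, had 14.3 and 3.62 CPM, and Pax7, the paralogue of Pax3, 16.6 and 2.94 CPM. Tcf7l2, a factor of thalamic and habenular neurons, had 545 CPM in members (310 to 763 over mice), 66.03 CPM in other GABAergic nuclei and 791 CPM in the Slc17a6 and Tcf7l2 nuclei, which were chosen for it. Meis2 was the gene of the list that was lower in members, at 57.8 against 317 CPM. Helt and En1, 2 midbrain genes of the list, had no UMI in any member.

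Of 23 telencephalic genes, Lhx6 left aside, 15 were at least 2-fold lower in members and 2 at least 2-fold higher, beside 2.33% and 1.69% of all genes. Of the 8 with at least 5 CPM in members, 3 were at least 2-fold lower, beside 3.40% of all genes at that level. Dlx1, a homeobox gene of telencephalic GABAergic neurons, had 0.999 CPM in members (0 to 7.86 over mice) and 20.7 CPM in other GABAergic nuclei (12.3 to 39.8), so that the values did not overlap. Dlx6os1, a noncoding gene of the Dlx family loci, had 10.2 against 166 CPM, and Npas1 and Maf were also lower in members in 15 of 15 mice. Tshz2 and Nr2f2 were the 2 genes above, at 188 against 71.4 CPM and 39.0 against 18.5 CPM.

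Several genes of other GABAergic types were lower in members. Of 20 interneuron genes 12 were at least 2-fold lower and 0 at least 2-fold higher, beside 2.33% and 1.69% of all genes. The lower ones include Sst (3.64 against 27.5 CPM), Vip (0.176 against 9.37 CPM) and Calb1 (9.52 against 47.9 CPM). Of the 12 interneuron genes with at least 5 CPM in members 5 were lower, beside 3.40% of all genes at that level. Adarb2, which marks interneurons of the caudal ganglionic eminence, stood apart from the lower genes at 2673 CPM in members and 3124 CPM in other GABAergic nuclei. Of 11 striatal genes, Rarb left aside, 9 were at least 2-fold lower, including Adora2a (0.294 against 10.5 CPM). Of the 6 with at least 5 CPM in members 4 were lower, beside the same shares of all genes. The choice kept nuclei with Lhx6, or with at least 3 UMIs of Rarb, out of members, while other GABAergic nuclei include them. Lower levels of genes of those nuclei follow in part from the choice. The dopamine receptor genes Drd1 and Drd2, on which the study turned, had 11.3 and 9.58 CPM in members and 64.2 and 156 CPM in the 2337 Rarb GABAergic nuclei, chosen for a striatal gene. Their ratios to other GABAergic nuclei, with 1 CPM added to both levels, were 0.738 for Drd1, within 2-fold, and 0.287 for Drd2.

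The 331 Otx2 GABAergic nuclei shared part of this profile. Tal1 was at 34.7, Lhx1 at 35.5 and Lhx5 at 17.3 CPM in Otx2 nuclei, against 34.8, 26.9 and 17.0 CPM in members. Other genes differed more. Tcf7l2 was at 90.6 CPM in Otx2 nuclei against 545 CPM in members, Ebf3 at 10.8 against 58.9 CPM, Meis2 at 616 against 57.8 CPM and Sox14 at 46.5 against 14.3 CPM. The 613 Lhx6 GABAergic nuclei had at most 0.0857 CPM of Tal1 and Lhx1 and none of Lhx5, Sox14 and Pax7.

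**Figure D2:**
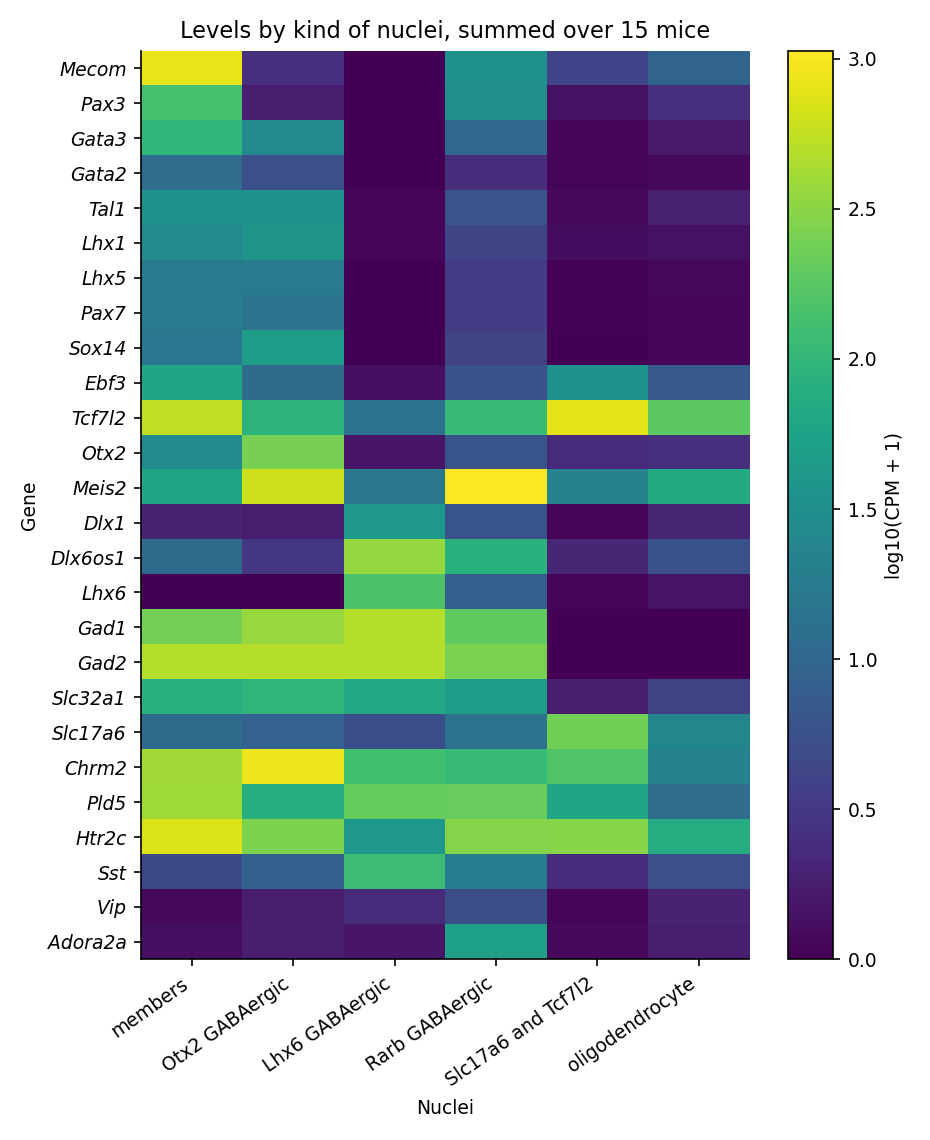
Levels of 26 genes, as log10(CPM + 1) of counts summed over 15 mice, in members and in 5 other kinds of nuclei. Lhx6 nuclei were defined without Mecom, Pax3 and Gata3 UMIs and Otx2 nuclei with fewer than 2 of them, and Lhx6 is 0 in members by the choice; apart from these, members and Otx2 nuclei both have Tal1, Lhx1 and Lhx5 and little Dlx1, and the Slc17a6 and Tcf7l2 nuclei were chosen for those 2 genes.

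The 20 genes with the largest ratio to other GABAergic nuclei, with 1 CPM added to both levels, among genes with at least 20 CPM in members and outside the choice, were led by Col8a1 (90.7 against 4.27 CPM), a collagen chain, and Ebf3 (58.9 against 3.45 CPM), a factor of neuronal differentiation. The elastin gene Eln had 22.3 against 2.98 CPM and Hpse2, a relative of heparanase, 37.2 against 2.15 CPM. Hs3st3b1, a heparan sulphate sulphotransferase, had 44.1 against 10.5 CPM, and 129 CPM in Otx2 nuclei. Glra1 and Glra3 encode subunits of the glycine receptor and had 41.0 and 51.8 CPM in members against 7.13 and 9.16 CPM. Otx2 nuclei had 39.9 and 20.8 CPM of them, and also Lgr5 at 92.7 CPM (85.9 in members) and Cdh4 at 411 CPM (475 in members), so several of the 20 were not particular to members. The others were Col11a1, Tcf7l2, Tal1, Lhx1 and its antisense neighbour Lhx1os, Rmst, Nox4, Htr2c, Cdh4, Lgr5, Sema6a, 6330411D24Rik and Gm32647. Sema6a was at 486 CPM in oligodendrocyte nuclei, above the 361 CPM in members. The Slc17a6 and Tcf7l2 nuclei had Glra3 at 46.5, Rmst at 295 and Gm32647 at 314 CPM, against 51.8, 420 and 646 CPM in members. Lhx1 (chromosome 11, 84518284 to 84525535) and Lhx1os (84525660 to 84535831) lie next to each other on opposite strands and do not overlap. Whether reads of one were counted to the other was not tested. All 20 but Hpse2 were higher in members in 15 of 15 mice, and Hpse2 in 13. The 20 were picked for this ratio in the same mice, so these counts follow largely from the picking and are no separate support.

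Most listed receptor genes were within 2-fold of other GABAergic nuclei. Of those that reached 5 CPM in members or in other GABAergic nuclei, 12 of 13 genes of the hormone receptor list, which also holds the regulator Fkbp5, were so, with 0 at least 2-fold higher and 1 lower. For monoamine receptors it was 9 of 13 (2 higher, 2 lower), for acetylcholine receptors 5 of 8 (2 higher, 1 lower), for GABA receptors 11 of 15 (2 higher, 2 lower) and for glutamate receptors 18 of 24 (2 higher, 4 lower). Over all genes that reached this level, 3.65% were at least 2-fold higher and 5.10% lower. The genes below were mostly named for the size of their difference. Htr2c, a serotonin receptor, had 706 CPM in members (368 to 2054 over mice) and 131 CPM in other GABAergic nuclei (65.6 to 220). Chrm2 had 404 CPM in members (141 to 591 over mice) against 134 CPM (47.4 to 256), higher in 15 of 15 mice, and was higher still in Otx2 nuclei, at 899 CPM. Pld5 had 388 CPM (169 to 517 over mice) against 129 CPM (87.1 to 179) and 80.7 CPM in Otx2 nuclei. The serotonin receptor genes Htr7 (81.7 against 30.1 CPM) and Htr2a (47.8 against 24.9 CPM) were also higher, while the muscarinic receptor gene Chrm1 was lower (9.52 against 44.1 CPM, lower in 15 of 15 mice). The chloride channel subunits Gabra3 (107 against 41.5 CPM) and Gabrg1 (39.6 against 13.9 CPM) of the GABA-A receptor were higher and Gabrd (4.29 against 31.5 CPM) and Gabra4 (67.2 against 193 CPM) lower in members. Of glutamate receptor subunits, Grin3a (308 against 132 CPM) was higher, and Gria1 (1319 against 3220 CPM) and Grin2a (1050 against 2666 CPM) lower. Of hormone receptors, the mineralocorticoid receptor Nr3c2 (515 against 858 CPM), the glucocorticoid receptor Nr3c1 (57.3 against 96.0 CPM) and its regulator Fkbp5 (31.1 against 64.1 CPM) were lower in members in 15 of 15 mice, and the progesterone receptor Pgr was higher in 14 (51.5 against 31.8 CPM). Neither Oxtr, the oxytocin receptor (6 UMIs in all members), nor Esr1, an oestrogen receptor (5.82 against 9.22 CPM), was abundant.

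Divided by detection, the 3 kinds of members differed in many more genes than those that divided them. The genes given here were picked after their values were seen, and the values carry no test. Members with Mecom and no Pax3 held most of Ebf3 (116 CPM, against 9.40 with Pax3 and no Mecom and 15.6 with Gata3 alone), of Col8a1 (179, 21.3 and 15.2 CPM in the same order) and of the homeobox gene Six3 (24.1, 0 and 1.93 CPM). Each of these was higher in the Mecom kind than in the Pax3 kind in 15 of 15 mice. With no Six3 UMI among 4044263 UMIs of the Pax3 kind, the gene was at or under the limit that a count of 0 allows. Pax7 went with Pax3 (46.2 CPM, against 3.32 in the Mecom kind, higher in 14 of 15 mice), as did the kainate receptor subunit Grik1 (952, against 315 and 350 CPM). Adarb2 was low in the Mecom kind only, at 940 CPM against 4117 and 3946 CPM, lower than in the Pax3 kind in 15 of 15 mice. Tal1 did not follow the division, at 34.17, 30.41 and 36.98 CPM.

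Nuclei with Gata3 alone carried most of Chrm2, at 778 CPM against 218 CPM in the Mecom kind and 263 CPM in the Pax3 kind, above both in 14 of 15 mice. Prlr, the prolactin receptor, which mediates much of the response of the brain to lactation, had the same shape. It had 71.7 CPM in nuclei with Gata3 alone (372 UMIs, 5.74 to 198 CPM over mice), 15.6 CPM in the Mecom kind (113 UMIs, 0 to 132 CPM) and 12.6 CPM in the Pax3 kind (51 UMIs, 0 to 58.8 CPM), and was highest in nuclei with Gata3 alone in 14 of 15 mice. The T-type calcium channel gene Cacna1h (66.6, 20.3 and 17.6 CPM) was above both in 13 of 15 mice and Meis2 (120, 32.1 and 31.6 CPM) in 10. Over all members Prlr was at 32.5 CPM, against 22.7 CPM in other GABAergic nuclei. Without the mixed sub-clusters, described below, Prlr had 78.1, 9.61 and 14.2 CPM in the Gata3, Mecom and Pax3 kinds.

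Clustering of the members gave 14 sub-clusters, 10 of which were not mixed. The leading genes below define the sub-clusters and were read after clustering, so they are a description. The Mecom members fell mainly into 4 of them, and no cell type name is given to any. Sub-cluster 1 (226 nuclei, 97.8% with Mecom) was led by genes that include Col25a1 and Nox4, and sub-cluster 7 (94 nuclei, 100% with Mecom) by Aox3 and Cps1. Sub-cluster 10 (74 nuclei, 100% with Mecom) was led by Col18a1, Abi3bp and Hpse2, and had 410 CPM of Ebf3. Sub-cluster 5 (106 nuclei, 86.8% with Mecom) was led by Myocd, the glycine transporter gene Slc6a5 and the AP-2 factor genes Tfap2a and Tfap2b, and with sub-cluster 7 it had the highest Six3 (60.0 and 60.4 CPM). Slc6a5 marks neurons that release glycine, and had 42.6 CPM in sub-cluster 5, 25.4 in sub-cluster 7, 17.3 in sub-cluster 10 and 0 in sub-cluster 1.

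The Pax3 members were spread over sub-clusters 2, 3 and 11. Sub-cluster 11 (53 nuclei, 100% with Pax3, 709 CPM) was led by the fibronectin gene Fn1, Arhgap28 and Gpr149. In sub-cluster 3 (164 nuclei, 70.1% with Pax3 and 75.6% with Gata3) Has2os, Cdh23 and the enkephalin gene Penk led. Sub-cluster 2 (190 nuclei) was the most varied, with a UMI of Mecom in 35.3%, of Pax3 in 42.1% and of Gata3 in 57.4%, and was led by Dkk2, Dlx6os1 and St8sia2. Dlx6os1 had a UMI in only 5.79% of its nuclei, which carried the whole of its 37.1 CPM.

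The remaining 3 had Gata3 and little of the other factors. Sub-cluster 4 (108 nuclei, 99.1% with Gata3) was led by Ttn and had Chrm2 at 1740 CPM, Pld5 at 1315 CPM, the parvalbumin gene Pvalb at 35.7 CPM and Prlr at 121 CPM. Both given markers beyond the 3 factors were thus strongest in sub-cluster 4 among the 14, but not in all nuclei with Gata3 and little of the other factors. Sub-cluster 9 had 39.6 CPM of Chrm2 and 125 CPM of Pld5, and sub-cluster 12 had 1115 and 14.6 CPM. Sub-cluster 9 (80 nuclei, 100% with Gata3) was led by the relaxin receptor gene Rxfp1 and the aromatic amino acid decarboxylase gene Ddc, with 89.1 CPM of Prlr. Sub-cluster 12 (41 nuclei, 97.6% with Gata3) was led by the nicotinic receptor gene Chrnb3, Gabrr2 and Meis2. It had Otx2 at 212 CPM, Meis2 at 1088 CPM and Tcf7l2 at 27.4 CPM, beside 256, 616 and 90.6 CPM in the Otx2 GABAergic nuclei, and Htr2c at 5.48 CPM. The 10 were each found in 12 to 15 mice. At the resolutions 0.3 and 1.0 there were 12 and 19 sub-clusters in place of 14.

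The mixed sub-clusters were 6, led by genes that include Flt1 and Vwf of vessels (103 nuclei), 8 by Aspa and Mobp of oligodendrocytes (83 nuclei), 13 by Pdgfra and Cspg4 of oligodendrocyte precursors (30 nuclei) and 14 by Ttr of the choroid plexus (16 nuclei, all with a Mecom UMI). Summed over its 10 markers, the oligodendrocyte list had 374 CPM in all members and 147 CPM without the mixed sub-clusters, against 378 CPM in other GABAergic nuclei. The astrocyte list went from 367 to 177 CPM, that of oligodendrocyte precursors from 52.8 to 13.0 CPM and the vascular, choroid and ependymal list from 112 to 23.9 CPM. The microglia list stayed at 83.4 of 91.2 CPM, so part of the glial signal was outside the mixed sub-clusters. The shares of members with Mecom (50.1%) and Gata3 (61.2%) changed little when the mixed ones were left out, from 50.1% and 58.9%.

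**Figure D3:**
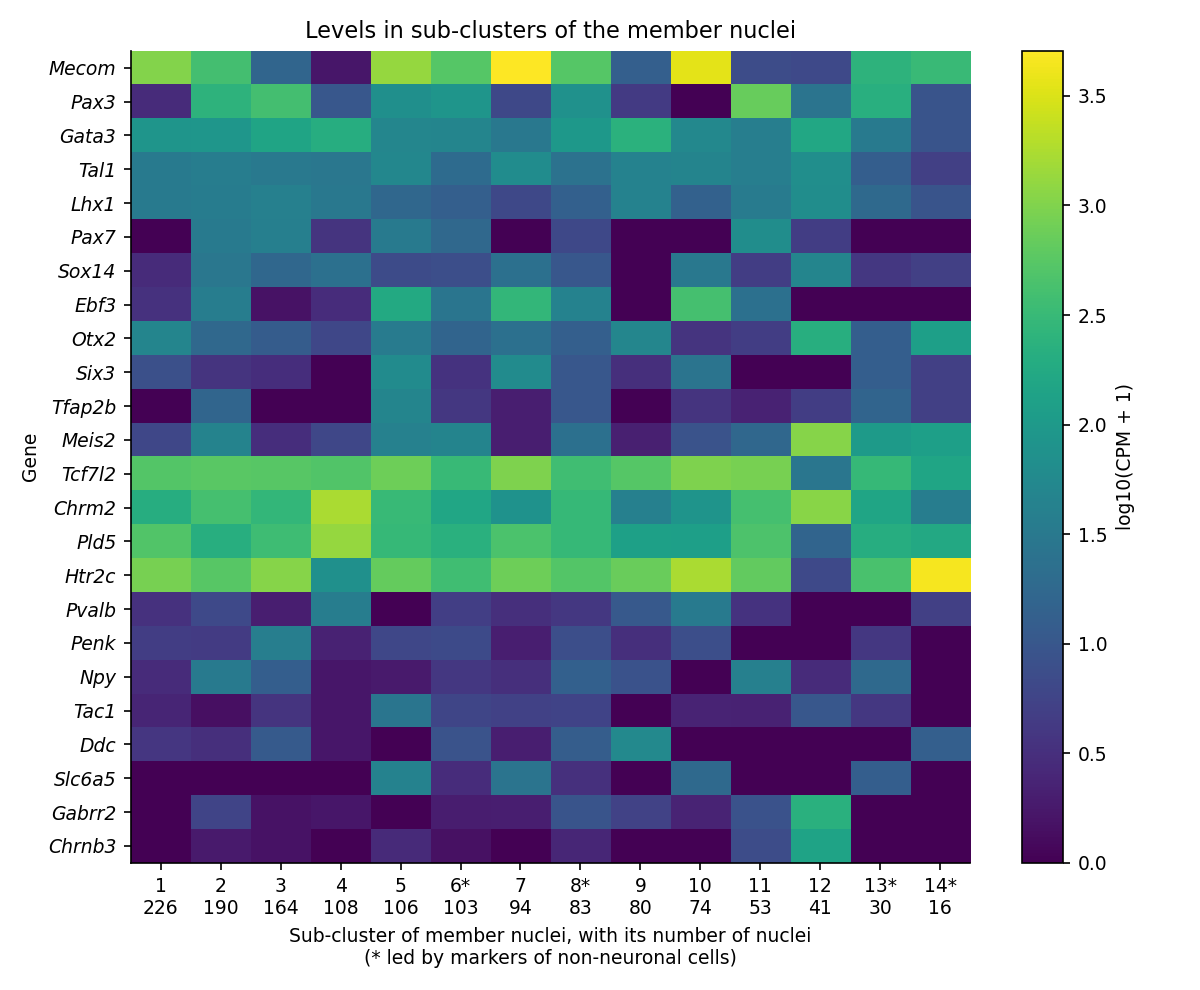
Levels of 24 genes, as log10(CPM + 1), in the 14 sub-clusters of the members, with the number of nuclei under each; an asterisk marks the 4 led by markers of non-neuronal cells. Among those without an asterisk, Mecom is strongest in sub-clusters 1, 5, 7 and 10, Pax3 in 2, 3 and 11, while 4, 9 and 12 have Gata3 with little of either; Tal1 is at 28.6 CPM or more in all 10 sub-clusters without an asterisk.

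No gene differed between the 3 groups of mice within these nuclei at an adjusted p under 0.05. Counts of members were summed per mouse, and 10658 genes were tested with the quasi-likelihood test of edgeR, all 15 mice in 1 fit. Of these 0 (0%) were called in control RE minus NP, 0 (0%) in stress RE minus control RE and 0 (0%) in stress RE minus NP, and DESeq2 called 0 as well. At an unadjusted p under 0.05, control RE minus NP had 186 genes higher (1.75%) and 184 lower (1.73%), stress RE minus control RE 203 higher (1.9%) and 95 lower (0.891%), and stress RE minus NP 112 higher (1.05%) and 111 lower (1.04%). With both directions together, each comparison stayed below the share of 0.05 that such a p gives where no gene differs. DESeq2 gave 354, 282 and 222 genes at an unadjusted p under 0.05. The median standard error of a gene was 0.24, 0.25 and 0.23 on the log2 scale, so that small differences were not detectable at this number of mice and nuclei. Leaving out any mouse gave 0 called genes each time, but the counts at an unadjusted p rested on single mice. Stress RE minus control RE went from 298 to 503 genes without stress RE mouse 90, and its 203 higher and 95 lower became 136 and 115 without control RE mouse 87. Stress RE minus NP went from 223 to 399 without stress RE mouse 70. Control RE minus NP went from 370 to 554 without NP mouse 63, to 256 without control RE mouse 72 and to 243 without the mixed sub-clusters. With batch as a term, which the fit above leaves out, 0 genes were called, and 246, 337 and 241 were at an unadjusted p under 0.05.

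Markers of other cells were measured beside these comparisons, and the groups overlapped for each list. The 10 oligodendrocyte markers summed to 178 to 723 CPM in NP, 196 to 359 CPM in control RE and 114 to 645 CPM in stress RE mice, and all 10 were lower in control RE than in NP, with a median log2 difference of −0.77 and 1 of 10 at an unadjusted p under 0.05. None passed the adjusted threshold. Of 8 hippocampal excitatory neuron markers tested, 6 were higher in control RE than in NP, with a median log2 difference of 0.78. In stress RE minus control RE 7 of the 8 were lower, with a median of −0.52. Over all genes tested the medians were −0.01 and 0.01. Calb1 alone of the 8 was at an unadjusted p under 0.05, in both comparisons, and 0 passed the adjusted threshold. The astrocyte list had its highest median in control RE mice, 393 CPM, with 315 CPM in NP and 339 CPM in stress RE mice, and the list of oligodendrocyte precursors reached 94.3, 46.9 and 326 CPM. The vascular and choroid list ranged from 25.5 to 528 CPM in NP, 10.4 to 68.8 CPM in control RE and 15.0 to 368 CPM in stress RE mice. The part of these cells in the gene comparisons was not tested beyond the fits without the mixed sub-clusters and without the doublets marked by Scrublet, which each called 0 genes, with 266, 267 and 185 genes at an unadjusted p under 0.05 without the doublets by edgeR and 243, 248 and 168 without the mixed sub-clusters.

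Neither of the given markers left to test passed the threshold. Chrm2 was at 423 ± 86.4 CPM (SD) in the 6 NP mice, 392 ± 78.4 in the 4 control RE mice and 373 ± 169 in the 5 stress RE mice, with log2 differences of −0.01 ± 0.27 (SE), −0.06 ± 0.28 and −0.07 ± 0.26 (adjusted p = 0.99999, 0.99998 and 0.99981 by edgeR) in the order of comparisons above. In single mice Chrm2 was lowest in stress RE mouse 43 and highest in stress RE mouse 90. Pld5 had log2 differences of 0.13 ± 0.25, −0.01 ± 0.26 and 0.11 ± 0.23. Of the 24 midbrain and diencephalic factors tested, 0 passed either threshold in any comparison, with median log2 differences of −0.16, 0.03 and −0.11, beside −0.01, 0.01 and 0.01 over all genes tested.

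No receptor gene bearing on the question of the study passed the adjusted threshold. Prlr ranged from 17.5 to 166 CPM in NP (median 33.7), from 27.2 to 35.0 CPM in control RE (median 29.8) and from 18.1 to 98.2 CPM in stress RE mice (median 31.5), with log2 differences of −0.27 ± 0.51, 0.12 ± 0.53 and −0.14 ± 0.49. Of 12 genes of the hormone receptor list tested, 1 receptor and the regulator Fkbp5 were higher at an unadjusted p under 0.05 in control RE than in NP (1.75% of all genes tested were), and 0 in the other comparisons. The receptor was Nr3c2, at 382, 465, 629, 470, 480 and 478 CPM in NP mice 27, 31, 35, 37, 63 and 73, at 605, 586, 581 and 591 CPM in control RE mice 66, 72, 87 and 88, and at 361, 616, 463, 456 and 558 CPM in stress RE mice 43, 70, 75, 77 and 90. The 4 control RE mice lay close together and above 5 of 6 NP mice. Nr3c2 was highest in the mixed sub-cluster 6, at 989 CPM, against 333 to 590 CPM in the sub-clusters that were not mixed. Sub-cluster 6 held a mean of 11.4% of members in control RE, 4.56% in NP and 7.22% in stress RE mice. Its part in the difference was not tested. Control RE minus NP was 0.38 ± 0.15 for Nr3c2 (unadjusted p = 0.0181, adjusted p = 0.99999 by edgeR), and the other gene was Fkbp5, at 0.45 ± 0.21 (unadjusted p = 0.0435). Neither passed the adjusted threshold. Drd1 and Drd2 had log2 differences of 0.08 ± 0.30 and −0.12 ± 0.48 in control RE minus NP, and 0.07 ± 0.31 and −0.50 ± 0.53 in stress RE minus control RE. Pgr had 0.39 ± 0.21 and −0.40 ± 0.22, and Crhr1, a receptor of corticotropin-releasing hormone, 0.27 ± 0.36 and 0.09 ± 0.37. Esr1 and Oxtr had too few counts for a test.

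Genes for signalling at the synapse gave a few small p. Of 14 GABA receptor genes tested in control RE minus NP, 3 were higher at an unadjusted p under 0.05, among them Gabra2 and Gabra5, and 1 was lower, Gabbr1, where 1.75% of all genes tested were higher and 1.73% lower. Of 22 glutamate receptor genes 2 were higher, Gria2 among them, and of 35 ion channel genes 2 were higher, Kcnd2 and Kcnt2, with 0 lower in both lists, beside the same shares over all genes. In stress RE minus control RE and in stress RE minus NP, 0 genes of these 3 lists were at an unadjusted p under 0.05. Pnoc, the prepronociceptin gene, was lower in control RE than in NP (4.50 ± 1.63 and 12.5 ± 6.76 CPM) and higher in stress RE than in control RE (15.0 ± 7.93 CPM), again at an unadjusted p alone, 0.0325 and 0.00427. The 2 comparisons share the control RE mice. These genes were picked by their p, and none passed the adjusted threshold.

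**Figure D4:**
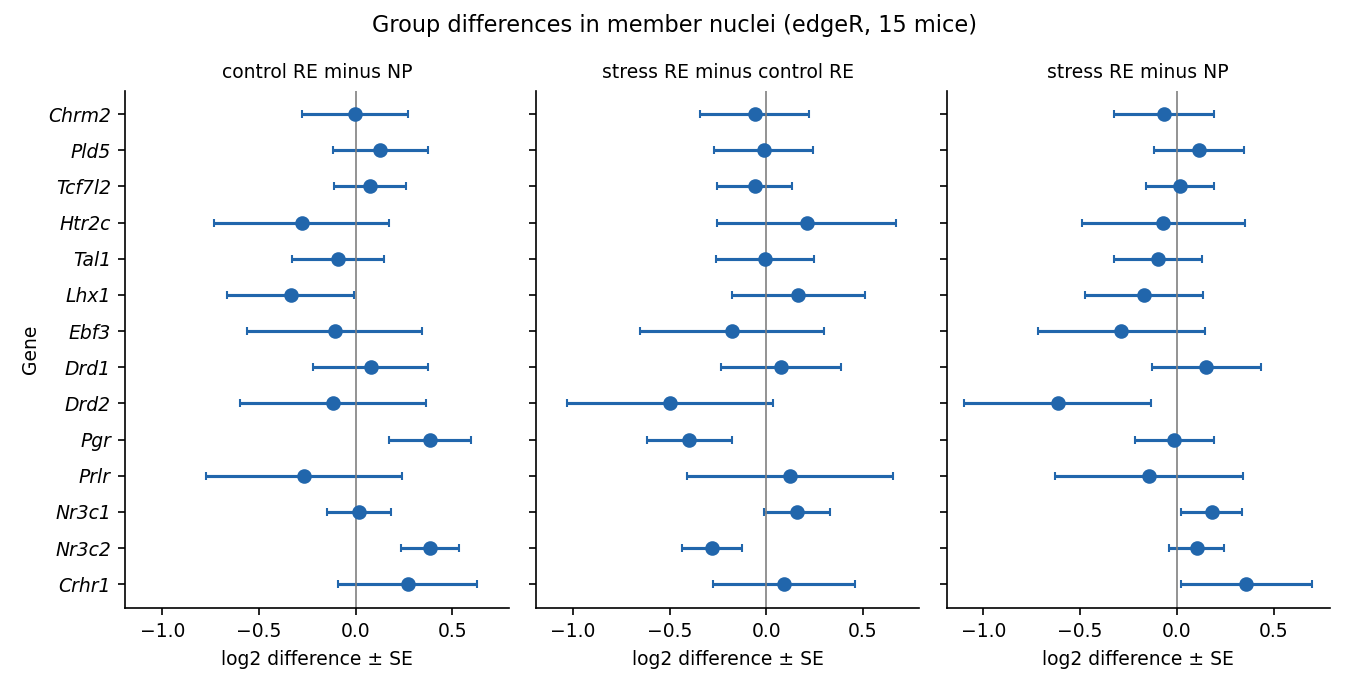
Log2 differences ± SE between groups in summed counts of members, for 14 tested genes in 3 comparisons (edgeR, 15 mice). None of the 14 passed an adjusted p of 0.05; Nr3c2 in control RE minus NP, at 0.38 ± 0.15, has the smallest p among them.

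The genes of smallest p among the 10658 tested are given as not past the threshold. They were picked for that p, so how far the groups lie apart in them follows in part from the picking. In control RE minus NP these were Wasf1, which acts on actin at synapses (0.68 ± 0.16, unadjusted p = 0.000282), Gm20754 (0.85 ± 0.21) and Mctp1 (0.56 ± 0.15) above, and Polr2b, a subunit of RNA polymerase II (−0.68 ± 0.20), Cbln2, a synapse organizer (−1.28 ± 0.37), and Selenos (−0.89 ± 0.26) below. Wasf1 had 68.0, 64.4, 50.6, 62.4, 82.1 and 86.2 CPM in NP mice 27, 31, 35, 37, 63 and 73, and 103, 137, 86.3 and 126 CPM in control RE mice 66, 72, 87 and 88. The highest NP mouse, 73, and the lowest control RE mouse, 87, were next to each other at 86.2 and 86.3 CPM. Cbln2 was a leading gene of sub-clusters 9 and 3, at 46.2 and 39.2 CPM. These 2 sub-clusters held means of 4.33% and 9.94% of members in control RE and of 9.75% and 12.3% in NP mice. The part of these shares in the Cbln2 difference was not tested.

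In stress RE minus control RE they were Hagh (0.84 ± 0.23, unadjusted p = 0.00144), Pcp4l1 (1.15 ± 0.32) and Jkamp (0.76 ± 0.22) above, and Jade3 (−0.70 ± 0.20), Iqcm (−1.64 ± 0.47) and Dcaf6 (−0.40 ± 0.12) below. Pcp4l1 was at 27.5, 19.2, 25.1, 24.1 and 14.5 CPM in stress RE mice 43, 70, 75, 77 and 90 and at 9.18, 6.95, 10.0 and 10.2 CPM in control RE mice 66, 72, 87 and 88. In stress RE minus NP they were the mitochondrial gene mt-Nd4 (0.90 ± 0.25, unadjusted p = 0.00220), Nell1 (0.48 ± 0.15) and Itpka (1.13 ± 0.36) above, and Mettl3, an RNA methyltransferase subunit (−1.02 ± 0.31), Fbxo46 (−1.07 ± 0.35) and Chmp1a (−1.04 ± 0.35) below. The adjusted p was above 0.99 for each of the 18 genes.

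Over mice, the share of members was compared with the shares of 3 other kinds of nuclei. All shares have the same denominator within a mouse. Otx2 GABAergic nuclei had at least 2 UMIs of Otx2 and fewer than 2 of Mecom plus Pax3 plus Gata3. Like nuclei can therefore fall on either side of that limit, and sub-cluster 12 of the members had high Otx2 and Meis2 too. The part of this in the relation with Otx2 nuclei was not tested. With the Otx2 GABAergic nuclei (0.0466% to 0.883% of nuclei) Pearson's r was 0.617 (permutation p = 0.0280, adjusted over 3 relations p = 0.0841) and Spearman's rho 0.629 (permutation p = 0.0144, adjusted p = 0.0433, n = 15). Without NP mouse 27 and stress RE mouse 70, the mice farthest from the median, r was 0.683 (permutation p = 0.0122, adjusted p = 0.0365) and rho 0.451 (permutation p = 0.123). Within batch 2 r was 0.906 (exact permutation p = 0.0806, n = 6) and within batch 3 0.324 (exact permutation p = 0.575, n = 6), neither past 0.05. With the Slc17a6 and Tcf7l2 nuclei r was 0.329 (permutation p = 0.238, adjusted p = 0.265) and rho 0.254 (permutation p = 0.361). The sign differed by batch, with r at 0.747 in batch 2 and −0.718 in batch 3. With the Lhx6 GABAergic nuclei r was 0.311 (permutation p = 0.265, adjusted p = 0.265) and rho 0.189 (permutation p = 0.494), and r was 0.551 in batch 2 and −0.748 in batch 3. Without the 2 mice farthest from the median, r was 0.218 and 0.216 for these 2 kinds. Batch 1 had 3 mice and no value of its own.

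**Figure D5:**
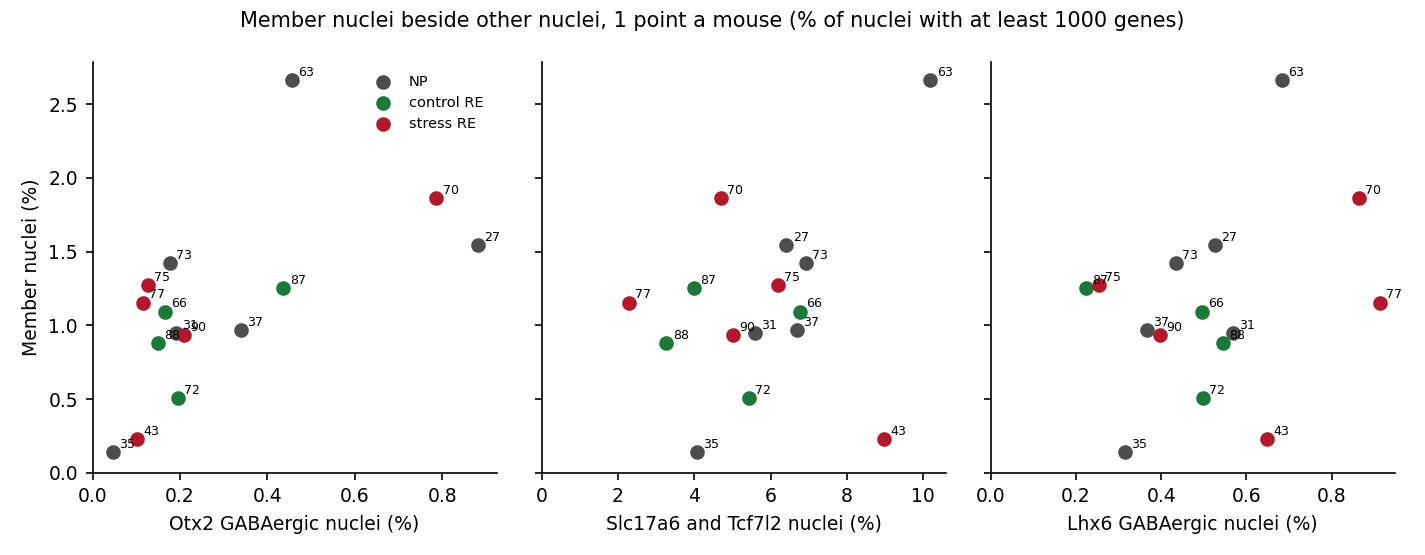
Share of members against the shares of Otx2 GABAergic nuclei, of Slc17a6 and Tcf7l2 nuclei and of Lhx6 GABAergic nuclei, each in percent of nuclei with at least 1000 genes, 1 point a mouse (n = 15) with its number, coloured by group. With Otx2 nuclei rho is 0.629 over all mice and 0.451 without NP mouse 27 and stress RE mouse 70; NP mouse 35 and stress RE mouse 43 have few members at 4.07% and 8.97% of Slc17a6 and Tcf7l2 nuclei.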

How the data were processed

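Single-nuclei RNA sequencing was analysed in 15 libraries, 1 mouse each, from UMI counts per gene and barcode deposited by the authors as filtered matrices, without normalization. File headers name Cell Ranger 7.0.0 and the labels 7.1.0, with mm10 and GRCm39 as builds. The corrections for free RNA and doublets that the methods describe are not part of these counts. The members and gene lists were chosen with earlier results of these data known. Barcodes with at least 1000 genes were kept. Members were clustered with scanpy 1.11.5 and doublets marked with Scrublet, leaving them in. Shares were compared by exact permutation over mice. Counts of members were summed per mouse and tested with edgeR 4.0.16 (quasi-likelihood, Benjamini-Hochberg adjusted p under 0.05), with DESeq2 1.42.0 as an alternative. The SE is the log2 difference divided by the square root of F. Scripts were tested on simulated data. Relations used 100000 permutations. Positions are from the GENCODE annotation. Genes named were those of the choice and the given markers, the 3 of smallest p per direction where fewer passed, up to 3 higher and 3 lower a list, the 20 of highest ratio, and receptors bearing on the question. Others are said to have been picked after their values were seen. Library sizes were 5789 to 12738 barcodes, with 138250 to 3020149 UMIs in the members of a mouse. The labels name 3 batches without saying what a batch was. Mice are separate animals. Counts of list genes without the genes of the choice were added after seeing the data. Some genes are not reported here.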

Additional observations from a re-analysis of the deposited data

Results flagged for a closer look

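Of 54 groups of values examined for 1 mouse standing apart from the rest of its group, 4 had such a mouse, and chance gives about 1 in 20. In control RE mouse 66, 12.3% of members had Pax3 without Mecom, against 26.97% to 28.9% in the other 3 mice. In NP mouse 35 Htr2c had 2054 CPM, against 368 to 965 CPM in the other NP mice, and 355 CPM without the mixed sub-clusters, where the other NP mice had 323 to 996 CPM. Prlr had 166 CPM in NP mouse 35, against 17.5 to 52.3 CPM in the others. It had 98.2 CPM in stress RE mouse 43, against 18.1 to 38.0 CPM. Without the mixed sub-clusters Prlr was at 190 CPM in NP mouse 35, from 15 UMIs in 8 nuclei, and at 111 CPM in stress RE mouse 43, from 20 UMIs in 11 nuclei. These mice had the fewest members, 12 and 18, and 1 UMI was worth 7.23 and 3.93 CPM in them. The part of the small number of nuclei in these values was not tested.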

How the results depend on the processing

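Of 60 alternatives for the differences in share, 55 kept the direction, and none passed the threshold, which the 3 within batches could not reach. Stress RE minus control RE turned to −2.25 percentage points as percent of GABAergic nuclei and to −0.0363 within batches 2 and 3, which by construction is the value without stress RE mouse 70, and ran from −0.0363 to 0.372 when 1 mouse was left out. Stress RE minus NP ran from −0.418 to 0.0861 when 1 mouse was left out, turning to 0.0861 without NP mouse 63 and to 0.0254 without stress RE mouse 43. Control RE minus NP ran from −0.575 to −0.0703. The cause was not tested. The relation with Otx2 GABAergic nuclei passed the threshold for r without the 2 mice farthest from the median, at 0.683, while rho fell to 0.451 (adjusted permutation p from 0.0433 to 0.370) and its call was lost, and the other 5 alternatives for relations kept the side of r. Of 75 alternatives for the counts of called genes 73 gave 0, leaving out each mouse included, while without a filter on low counts 1 gene, D130079A08Rik, was called in control RE minus NP and 1 in stress RE minus NP. Leaving out the mixed sub-clusters and leaving out mice with under 30 members were chosen after seeing the data. No paired analysis was possible because the groups share no mouse numbers. With 12 to 222 members a mouse, precision was limited most for genes of low counts.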
